A study of Mus musculus with 8 samples.

Results

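Interferon beta, the receptor chains of the interferon family, the Janus kinases bound to them and the feedback inhibitor Socs1 were examined in liver cells of LRP1 eKO and WT mice. The members were chosen by gene symbol, and all 10 were found among the 22520 protein-coding genes of the deposited table. The data are mRNA-seq libraries of 4 WT and 4 LRP1 eKO samples, labelled as liver microvesicular cells of C57BL/6 mice at postnatal day 14. Both groups carry the floxed Lrp1 allele (LRP1 f/f), and the genotypes are LRP1 f/f; Cdh5-CreER-/- for WT and LRP1 f/f; Cdh5-CreER+/- for LRP1 eKO. The CreER recombinase is driven by the endothelial promoter of Cdh5, and only the LRP1 eKO mice carry it, so that effects of CreER and of Lrp1 loss cannot be told apart. The agent, dose and timing of Cre induction for these mice are not given in the sources used here. The study's methods describe selection of the cells with beads against PECAM-1. The study's statistics section calls its replicates biological, but the labels of these libraries do not say whether they came from separate animals. The p-values measure the spread between these libraries, part of which may be technical.

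Type I interferons, among them interferon beta, signal through a receptor made of IFNAR1 and IFNAR2, and interferon gamma signals through IFNGR1 and IFNGR2. The receptors have no kinase of their own. IFNAR1 is bound by TYK2 and IFNAR2 by JAK1, while IFNGR1 is bound by JAK1 and IFNGR2 by JAK2. The activated kinases phosphorylate transcription factors of the STAT family, which turn on the interferon-stimulated genes. SOCS1 is induced by this signal and blocks the kinases, which limits its duration. IL10RB is a shared chain of the receptors for interleukin 10 and for lambda interferons. In the liver, endothelial cells, Kupffer cells and hepatocytes all carry interferon receptors.

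The signal is a quantile-normalized value, so that each library summed to between 484445 and 485947, and the depth of the libraries is unknown. Lrp1, the targeted gene, averaged 65.5 ± 13.3 across WT against 4.41 ± 1.65 across LRP1 eKO libraries (SD, n = 4 each), the latter at 6.74% of the former. The labelled cell type was checked against marker genes. The summed signal of 8 endothelial markers was between 21.8 and 23.9 in WT and between 21.6 and 35.2 in LRP1 eKO libraries. The sum of 7 stellate cell and fibroblast markers was between 1730 and 1872 in WT and between 1953 and 2107 in LRP1 eKO libraries. In WT libraries the endothelial marker Cdh5 averaged 1.86, and Egfl7, the highest of the endothelial list, averaged 9.17. In LRP1 eKO libraries Cdh5 averaged 3.70. It was the 1 called higher of 6 tested endothelial markers, against 19.0% of all genes tested. Acta2 and Dcn, the highest of the stellate and fibroblast list, averaged 811 and 563 in WT libraries. Lrat and Reln of that list averaged only 0.112 and 0.367, so that its sum rests on a few genes and does not single out stellate cells. The signal is not stated to be per length, so that these levels compare only roughly between genes. On that scale the markers do not bear out a preparation of endothelial cells alone, and the text speaks of liver cell libraries. Yet Lrp1 was at 6.74% of WT although its CreER is driven by an endothelial promoter. How these readings go together was not tested. Macrophage and Kupffer cell markers (13 genes) summed to between 113 and 223 in WT libraries. In LRP1 eKO replicates 1, 3 and 4 this sum was 736, 673 and 394, but it was 52.8 in replicate 2. The sum rests largely on Lyz2 and Cd68, which averaged 114 and 32.6 in WT libraries. Of its 9 tested genes 1, Csf1r, was called higher, against 19.0% of all genes tested. Clec4f, a Kupffer cell marker below the filter, was 0 in every WT library and 0.124 in LRP1 eKO replicate 2. The sum thus does not stand for every marker of the list. Hepatocyte markers (6 genes) were between 52.4 and 75.0 in WT and between 18.6 and 25.4 in LRP1 eKO libraries. Skeletal muscle markers (4 genes in the table) summed to between 20.8 and 37.3 in WT and to between 3.44 and 4.14 in LRP1 eKO libraries, and the 3 tested were called lower. Sums of 6 sinusoidal endothelial markers were between 7.10 and 10.3 in WT and between 7.64 and 27.6 in LRP1 eKO libraries. The part of these shifts in the differences between genotypes was not tested. In such bulk samples, fewer cells of a type and less RNA per cell cannot be told apart. WT replicate 4 was the library farthest from the WT median for 61.7% of the genes tested, and LRP1 eKO replicate 2 was farthest from the LRP1 eKO median for 37.2%.

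Signals were converted to log2(signal + 1) and compared with limma, with Benjamini-Hochberg adjustment over the 11391 genes in which 4 or more libraries reached a signal of 1. The log2 difference given below is LRP1 eKO minus WT on this scale, which understates the change of low genes, and means are followed by ± SD over the 4 libraries of a group. Of the 10 members, 8 passed this filter, and all 8 reached 1 in every library. Ifnb1 and Socs1 were below it and were fitted without it.

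Of the 8 receptor and kinase genes tested, Jak1, Jak2 and Ifngr2 were higher in LRP1 eKO libraries at an adjusted p below 0.05 from limma, and 0 were lower. Among all genes tested, 19.0% were called higher and 22.2% were called lower, 41.2% in all, so that 3 of 8 is near the share of called genes in general. None of the 8 reached a 2-fold change, where 0.869% of all genes tested passed both thresholds upward, 0.79% downward and 1.66% in all. The log2 differences of the 8 genes ranged from -0.21 for Ifnar2 to 0.37 for Jak1, with a median of 0.12, against a median of -0.01 over all genes tested. The ligand Ifnb1 was listed at 0 in 6 of 8 libraries. For the tested type I interferon targets, described further on, the median was 2.38. That list includes 4 genes that passed the filter through the LRP1 eKO libraries alone, so that its median depends on direction.

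**Figure D1:**
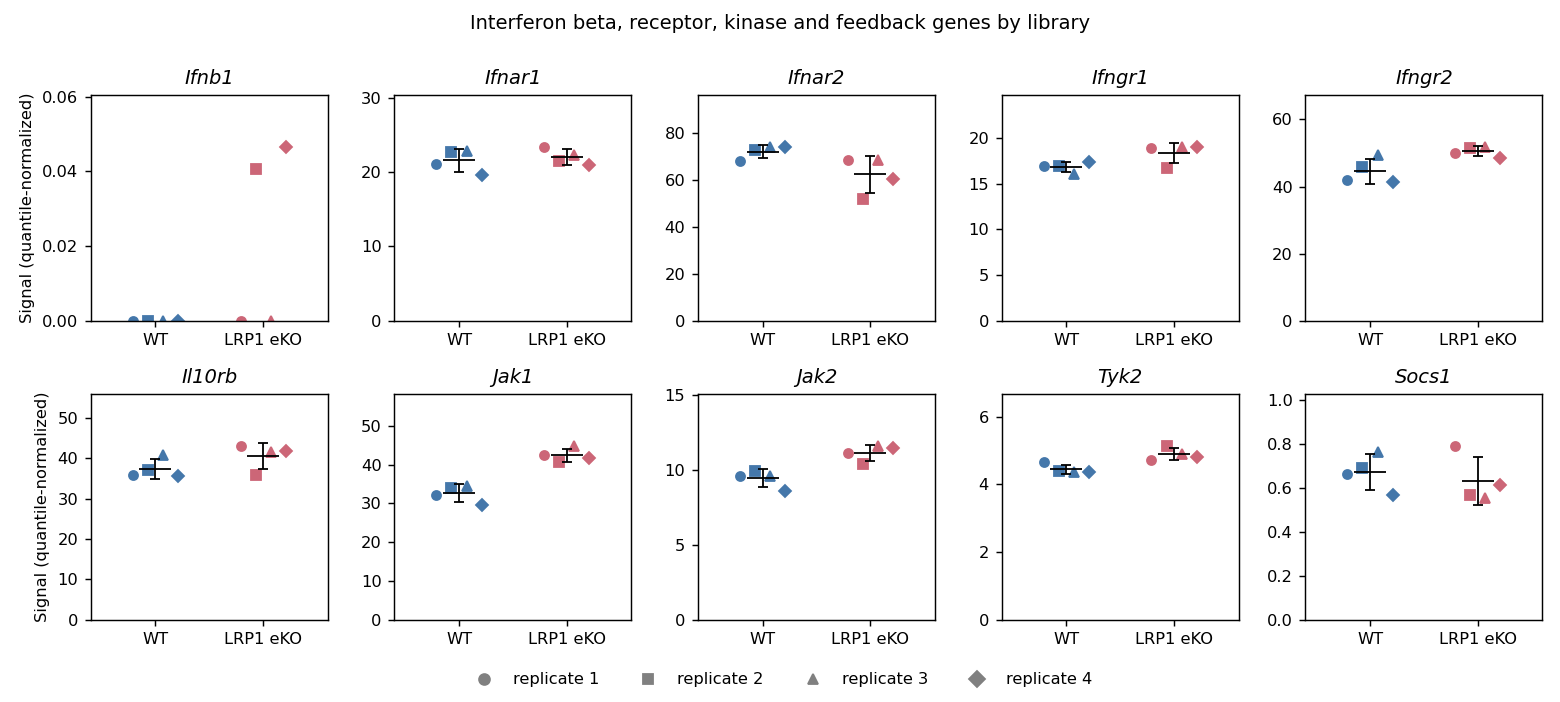
Quantile-normalized signal (y axis, from 0) of the 10 genes in each library, with WT in blue and LRP1 eKO in red and 1 marker shape per replicate number. Bars give the mean and SD of 4 libraries, except for Ifnb1. The points of WT and LRP1 eKO are separated for Jak1, Jak2 and Tyk2 and overlap for the other 7 genes.

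Ifnb1, the gene of interferon beta, lies on chromosome 4 of GRCm38 (88522025 to 88522774, minus strand). Its signal was 0 in all 4 WT libraries and in LRP1 eKO replicates 1 and 3, and it was 0.0405 and 0.0465 in LRP1 eKO replicates 2 and 4. These 2 values lie far below the filter, and a difference was not detectable (adjusted p = 0.22 by limma without the filter). Because WT libraries were listed at 0 and no counts were used here, no fold change is given. The other interferon genes were as low. Of 19 further ligand genes (the alpha interferons, Ifne, Ifnk, Ifng and the lambda interferons Ifnl2 and Ifnl3) 17 were listed at 0 in all 8 libraries, and 0 passed the filter. The highest signal of any of them in a library was 0.0661. Ifng, which T and NK cells make, was among the genes listed at 0. Of 8 T and NK cell markers, Cd3g, Cd8a and Ncr1 were at 0 in every library, and the other 5 were above 0 in some libraries without passing the filter, with a highest signal of 0.104 for Cd4. Plasmacytoid dendritic cells are a main source of type I interferon. Of 5 markers for them, Siglech and Klk1 were at 0 throughout, and Pacsin1 and Ccr9 stayed below the filter. Cox6a2 averaged 2.56 in WT against 1.43 in LRP1 eKO libraries (adjusted p = 0.034 by limma). Skeletal muscle markers were lower in LRP1 eKO libraries as well, and which cells the Cox6a2 signal came from was not tested.

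The 4 receptor chains Ifnar2, Il10rb, Ifnar1 and Ifngr2 lie next to each other on the plus strand of chromosome 16, within 192841 bases of GRCm38 (91372783 to 91565623). Ifngr1 lies on chromosome 10 (19591949 to 19610229, plus strand). In GENCODE M21, Ifnar2 and Il10rb share exon bases with Gm21970 on the same strand, and the source of reads in those bases is not known from the table.

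Ifnar1, the chain bound by TYK2, had signals of 21.1, 22.6, 22.8 and 19.6 across WT replicates 1 to 4, against 23.3, 21.5, 22.2 and 20.9 across LRP1 eKO replicates 1 to 4. The groups overlapped over most of their range. The log2 difference was 0.03 (95% interval -0.10 to 0.16, adjusted p = 0.71 by limma), so that a change of more than 1.12-fold upward lies outside this interval.

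Ifnar2, the chain bound by JAK1, was the one of the 8 tested genes with a lower mean in LRP1 eKO libraries. Its signal was 67.9, 72.7, 73.8 and 73.9 across WT replicates 1 to 4, against 68.6, 52.0, 68.3 and 60.3 across LRP1 eKO replicates 1 to 4. LRP1 eKO replicates 2 and 4 lay below every WT library, while replicates 1 and 3 lay within the WT range. The log2 difference was -0.21 (95% interval -0.40 to -0.03, unadjusted p = 0.028, adjusted p = 0.064 by limma), which did not pass the threshold after adjustment. LRP1 eKO replicate 2 moved this value most, and without it the log2 difference was -0.13 (adjusted p = 0.11 by limma). The adjusted p was 0.041 and 0.045 without LRP1 eKO replicate 1 or 3, the libraries with the highest macrophage sums, and the part of these cells in the value was not tested. The table gives 1 value per gene, and transcripts of the membrane-bound and of the soluble form of IFNAR2 are not separated.

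Both promoters of the type I receptor were searched for the letters TTCNNNGAA, the palindromic gamma-activated sequence (GAS) to which STAT dimers bind. The windows run from 250 bases before to 50 bases after the RefSeq start of each gene (GRCm38.p6), and 9 of the 10 members have one, Il10rb being without. The match is shown in capitals because Ifnar1 and Ifnar2 are the 2 members that hold one.
Ifnar1, chr16:91485202-91485226, plus strand: cgggggcgTTCACGGAAggggcggg
Ifnar2, chr16:91372561-91372585, plus strand: ccaaggccTTCCTGGAAgaagagag
The match of Ifnar1 begins 5 bases before the RefSeq start and that of Ifnar2 begins 214 bases before it. In GENCODE M21, Ifnar1 starts at base 91485238, past the end of the stretch printed, so that the distance of its match from the start is uncertain. Such a match was in 2 of 9 members and in 9.55% of 27025 genes with a window, and it is a description of letters and not of binding.

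For the interferon gamma receptor, Ifngr2 was higher and Ifngr1 did not pass the threshold. The signal of Ifngr2, the chain bound by JAK2, was 42.0, 45.8, 49.3 and 41.3 across WT replicates 1 to 4, against 50.1, 51.6, 51.7 and 48.5 across LRP1 eKO replicates 1 to 4. WT replicate 3 lay above LRP1 eKO replicate 4, and the other LRP1 eKO libraries lay above every WT library. The log2 difference was 0.18 (standard error 0.06, adjusted p = 0.0375 by limma), which is 1.13-fold (95% interval 1.03 to 1.24). This call was weak. With no filter the limma adjusted p was 0.054, and with 1 library left out it was between 0.051 and 0.097 for 7 of the 8 libraries and 0.012 without WT replicate 3. The exact two-sided permutation test gave p = 0.057 for Ifngr2.

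Ifngr1, the chain that binds interferon gamma, had signals of 17.0, 17.0, 16.04 and 17.4 across WT replicates 1 to 4, against 18.9, 16.8, 19.0 and 19.0 across LRP1 eKO replicates 1 to 4. LRP1 eKO replicates 1, 3 and 4 lay above every WT library, and replicate 2 lay within the WT range. The log2 difference was 0.12 (95% interval -0.0017 to 0.24, adjusted p = 0.10 by limma), and it was 0.16 without LRP1 eKO replicate 2 (adjusted p = 0.030 by limma).

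The interleukin 10 receptor chain gene Il10rb had signals of 35.8, 37.2, 40.9 and 35.6 across WT replicates 1 to 4, against 43.0, 36.0, 41.6 and 41.8 across LRP1 eKO replicates 1 to 4. Again LRP1 eKO replicate 2 was within the WT range and the other 3 were above it. The log2 difference was 0.12 (95% interval -0.03 to 0.26, adjusted p = 0.19 by limma) and 0.17 without LRP1 eKO replicate 2 (adjusted p = 0.043 by limma). LRP1 eKO replicate 2 is the library with the lowest macrophage sum, and the part of macrophage RNA in Ifngr1 and Il10rb was not tested. The partner chains of IL10RB were low. Ifnlr1, the lambda interferon chain, was at 1.29 ± 0.187 in WT and 1.20 ± 0.219 in LRP1 eKO libraries. Il10ra was below the filter, with a highest signal of 0.501.

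Of 13 listed genes from Olig2 to Itsn1, the 4 chains included, 11 were tested, 3 were called higher and 1 was called lower, near the 41.2% called among all genes tested. Tmem50b, a membrane protein gene next to Ifngr2 on the opposite strand, rose from 10.3 ± 0.759 to 12.5 ± 0.759, with a log2 difference of 0.26 (adjusted p = 0.010 by limma). Donson, a DNA replication gene, fell from 3.34 ± 0.372 to 2.72 ± 0.229 (adjusted p = 0.048 by limma), and Itsn1, a gene of endocytosis, was higher by 0.14 on the log2 scale (adjusted p = 0.0498 by limma). Gart, a gene of purine synthesis between Tmem50b and Donson, had a log2 difference of -0.0019 (adjusted p = 0.98 by limma).

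Of the 3 kinase genes among the members, Jak1 and Jak2 were called higher and Tyk2 was not. Jak1, on chromosome 4 of GRCm38 (101152367 to 101265282, minus strand), encodes the kinase shared by the receptors of both interferon types. Its signal was 32.2, 34.1, 34.6 and 29.5 across WT replicates 1 to 4, against 42.5, 40.7, 44.7 and 41.7 across LRP1 eKO replicates 1 to 4. All LRP1 eKO libraries lay above all WT libraries, a separation that 20.0% of the genes tested showed upward, 22.5% downward and 42.6% in all. Jak1, Jak2 and Tyk2 were separated in this way, 3 of 8 upward and 0 downward. The mean rose from 32.6 ± 2.29 to 42.4 ± 1.71, a log2 difference of 0.37 (standard error 0.06, adjusted p = 0.00087 by limma) or 1.29-fold (95% interval 1.18 to 1.41). The exact two-sided permutation test gave p = 0.029 for Jak1, which is as low as groups of 4 can give. The signal of Jak1 in LRP1 eKO replicate 2, the library with a macrophage sum of 52.8, was 40.7, the lowest of its group. The part of macrophage RNA in Jak1 was not tested. With 1 library left out, the log2 difference of Jak1 stayed between 0.33 and 0.40.

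Jak2, on chromosome 19 (29251828 to 29313080, plus strand), encodes the kinase of the interferon gamma receptor and of several hematopoietic and hormone receptors. Its signal was 9.60, 9.96, 9.63 and 8.59 across WT replicates 1 to 4, against 11.2, 10.4, 11.6 and 11.5 across LRP1 eKO replicates 1 to 4, again with no overlap. The mean rose from 9.45 ± 0.593 to 11.2 ± 0.539, a log2 difference of 0.22 (standard error 0.06, adjusted p = 0.0155 by limma) or 1.16-fold (95% interval 1.06 to 1.28). The limma adjusted p of Jak2 was at most 0.048 with 1 library left out. As for Jak1, LRP1 eKO replicate 2 was the lowest of its group, and without this library the log2 difference of Jak2 was 0.25. The part of macrophage RNA in Jak2 was not tested.

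Tyk2, on chromosome 9 (21104068 to 21131243, minus strand), encodes the kinase of IFNAR1. Its signal was 4.65, 4.39, 4.37 and 4.37 across WT replicates 1 to 4, against 4.73, 5.13, 4.91 and 4.81 across LRP1 eKO replicates 1 to 4. No library of either group lay in the range of the other (p = 0.029, exact two-sided permutation), although LRP1 eKO replicate 1 lay close above WT replicate 1. The difference was small, with a log2 difference of 0.11 (95% interval -0.0025 to 0.23), and it did not pass the threshold (adjusted p = 0.11 by limma). Jak3, the remaining kinase of the family, which pairs with the common gamma chain, had a log2 difference of 0.18 (adjusted p = 0.073 by limma). Jak1 shares exon bases with Raver2 and Tyk2 with 1700084C06Rik on the opposite strands, and whether strand was used in counting is not stated. Raver2 had a highest signal of 0.775 in any library and was lower in LRP1 eKO than in WT libraries.

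**Figure D2:**
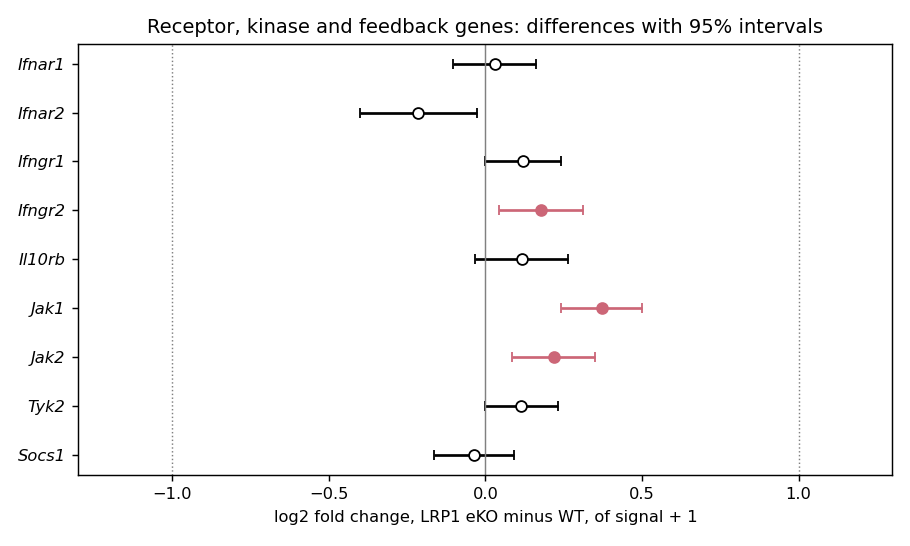
Log2 difference of signal + 1 (x axis, LRP1 eKO minus WT) with its 95% interval from limma, unadjusted for the number of genes, for 9 genes. Filled red points have an adjusted p below 0.05, and dotted lines mark a 2-fold change. Jak1 at 0.37, Jak2 at 0.22 and Ifngr2 at 0.18 are filled, and every interval lies within the dotted lines.

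Whether paired components moved by different amounts was tested with the log2 ratio of (signal + 1) of 2 genes within each library, by an exact two-sided permutation test with adjustment over 6 pairs. The ratio of Jak1 to Jak2 was between 1.65 and 1.74 in WT and between 1.78 and 1.87 in LRP1 eKO libraries, a difference of 0.15 ± 0.03 (SE). The ratio of Jak1 to Tyk2 was between 2.51 and 2.73 in WT and between 2.77 and 2.95 in LRP1 eKO libraries, a difference of 0.26 ± 0.07 (SE). For the type I receptor, the ratio of Ifnar1 to Ifnar2 was between -1.86 and -1.64 in WT and between -1.58 and -1.24 in LRP1 eKO libraries, a difference of 0.24 ± 0.09 (SE). In these 3 pairs the groups did not overlap, and each gave p = 0.029 in the exact permutation test, the smallest possible, and an adjusted p of 0.057. The difference was 0.10 ± 0.06 (SE) for Jak2 to Tyk2, -0.06 ± 0.10 (SE) for Ifngr1 to Ifngr2 and -0.09 ± 0.08 (SE) for Ifnar1 to Ifngr1, with adjusted p of 0.30, 0.54 and 0.34 from the exact permutation test. So 0 of 6 ratios passed the adjusted threshold, and 3 had an unadjusted p below 0.05. Given the p of the other pairs, these 3 could not have had an adjusted p below 0.057. Their failure to pass the threshold therefore says nothing about their differences.

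**Figure D3:**
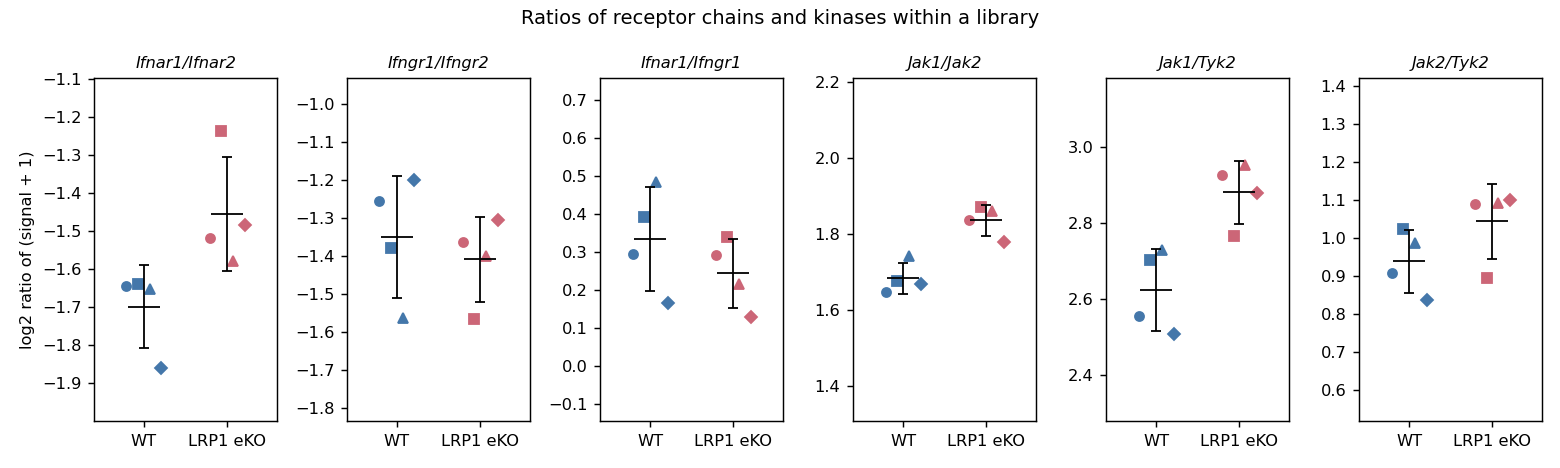
Log2 ratio of (signal + 1) of 2 genes within a library (y axis, spanning 0.9 in every panel) for 6 pairs, with WT in blue, LRP1 eKO in red, 1 marker shape per replicate number, and the mean and SD of 4 libraries. Points of the groups are separated for Ifnar1/Ifnar2, Jak1/Jak2 and Jak1/Tyk2.

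Socs1, on chromosome 16 (10782240 to 10785536, minus strand), encodes the feedback inhibitor of JAK kinases. Its signal was 0.665, 0.692, 0.764 and 0.566 across WT replicates 1 to 4, against 0.789, 0.565, 0.555 and 0.612 across LRP1 eKO replicates 1 to 4. The groups overlapped, and LRP1 eKO replicate 1 was the highest of all 8 libraries. The WT mean was 0.672 ± 0.0820, against 0.630 ± 0.109 for LRP1 eKO. The log2 difference, fitted without the filter, was -0.04 (95% interval -0.17 to 0.09, adjusted p = 0.66 by limma), and the pseudocount of 1 is larger than the signals themselves. With a pseudocount of 0.1 it was -0.08.

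The promoter of Socs1 was the one among 9 members that held the letters GAAANNGAA, the core of the interferon-stimulated response element, to which IRF proteins bind. The window is printed for Socs1 beside those of Isg15 and Ifit1, type I interferon targets whose signals rose. Capitals mark the core matches, which overlap in the windows shown, and in Ifit1 the core reads on the opposite strand.
Socs1, chr16:10785598-10785626, minus strand: cttgccgGAAAGAGAAACCGAAagcgggg
Isg15, chr4:156200872-156200900, minus strand: gtagGAAAAGGAAACCGAAACAGAAaata
Ifit1, chr19:34640773-34640801, plus strand: tgcaggcTTCAGTTTCACTTTCcagtctc
The block of matches begins 83 bases before the start in Socs1, 78 in Isg15 and 109 in Ifit1, and it holds 2, 3 and 2 overlapping matches. Ifit1 has a further match outside this block, which begins 84 bases before the start and is not printed. On both strands, the core was in 9.76% of 27025 genes with a window, in 8 of 15 type I interferon targets and in 5 of 8 type II interferon targets. Socs1 thus had the letters and a log2 difference of -0.04, while Isg15 had a log2 difference of 3.55 and Ifit1 of 3.41. A match does not show that a factor was bound in these cells.

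Of 22 negative regulators, all 22 were tested, 6 were called higher and 3 lower, with a median log2 difference of 0.09. Calls in either direction together are near the background of 41.2% over all genes tested. Usp18, which binds IFNAR2 and displaces JAK1 from it, rose from 1.62 ± 0.283 to 25.2 ± 1.15, a log2 difference of 3.32 (adjusted p = 3.7e-09 by limma). Ptpn11, the phosphatase SHP2, rose from 30.8 ± 2.87 to 38.8 ± 1.39 (adjusted p = 0.00385 by limma). Among the relatives of Socs1, Socs5 fell from 28.9 ± 1.82 to 22.3 ± 0.418, a log2 difference of -0.36 (adjusted p = 0.00060 by limma). Socs3, the inhibitor of interleukin 6 signaling, was chosen after its values were seen and fell from 10.7 ± 0.776 to 7.19 ± 1.36 (adjusted p = 0.0047 by limma). The well expressed Csnk1a1, a casein kinase that marks IFNAR1 for degradation, had a log2 difference of 0.09 (adjusted p = 0.41 by limma), and Socs2 of -0.09 (adjusted p = 0.30 by limma).

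Below the receptors, Stat2 and Irf9, transcription factors of the type I pathway, were higher. Of 8 tested receptor-associated and downstream genes, 3 were called higher and 1 lower, where 41.2% of all genes tested were called, so that the count is near the background. Stat2 rose from 9.17 ± 0.198 to 23.1 ± 0.912 and Irf9 from 11.0 ± 0.709 to 22.9 ± 1.07. Their log2 differences were 1.25 and 0.99, each larger than that of Jak1. Stat3, which serves the interleukin 6 family, went from 70.4 ± 7.94 to 64.1 ± 5.34 (adjusted p = 0.26 by limma). The gene called lower was Irf1, an interferon-induced transcription factor, with a log2 difference of -0.25 (adjusted p = 0.014 by limma).

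All 18 tested genes of 20 type I interferon targets were called higher, with log2 differences from 0.34 to 3.55, and 14 were past 2-fold, against 19.0% and 0.869% of all genes tested. Of the 18, 4 had a signal below 1 in every WT library and passed the filter through the LRP1 eKO libraries alone. The count and the median over tested genes are thus not independent of direction. Usp18 and Irf7 are in this list and in another one as well. Ifit1 rose from 1.78 ± 0.293 to 28.4 ± 1.25 and Ifit3 from 3.16 ± 0.0718 to 24.5 ± 1.74, genes of proteins that bind foreign RNA. Bst2, a protein that tethers virus particles to the cell surface, rose from 91.7 ± 5.85 to 265 ± 16.5. Type II interferon targets differed among themselves. Of 14, 6 passed the filter, of which 4 were called higher and 1 lower (Irf1, which is in both lists), against 19.0% and 22.2% of all genes tested. The 4 called higher were also past 2-fold, against 0.869% of all genes tested. Iigp1, 1 of the 4, likewise passed the filter through the LRP1 eKO libraries alone. Irgm1, a GTPase that type I interferon induces too, rose from 46.3 ± 1.47 to 128 ± 6.61. Ciita and Cxcl9 were below the filter with means of 0.0055 and 0.0036 in WT and of 0.0012 and 0 in LRP1 eKO libraries. These 2 genes were named after their values were seen, from 8 in the list below the filter, whose highest signal was 1.04. Both were near 0 in both groups, so that a change in them could not be seen. Which type of interferon acted was not tested.

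Upstream of Ifnb1, genes of the sensing pathway that leads to its transcription were called higher in 8 and lower in 2 of 16 tested cases, against 19.0% and 22.2% of all genes tested. Zbp1, 1 of the 8, had a signal below 1 in every WT library and was tested through its LRP1 eKO libraries alone, so that this count depends on direction. The RNA sensors Ddx58 and Ifih1 had log2 differences of 1.10 and 1.33, and Irf7, a transcription factor for interferon genes, rose from 10.2 ± 0.928 to 65.0 ± 5.14. Irf3, which acts on Ifnb1 before Irf7 is made, had a log2 difference of -0.15 (adjusted p = 0.054 by limma), and Tmem173, the adaptor STING, fell from 23.7 ± 0.576 to 18.7 ± 0.996. Ddx58, Ifih1 and Irf7 are themselves interferon-stimulated genes.

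**Figure D4:**
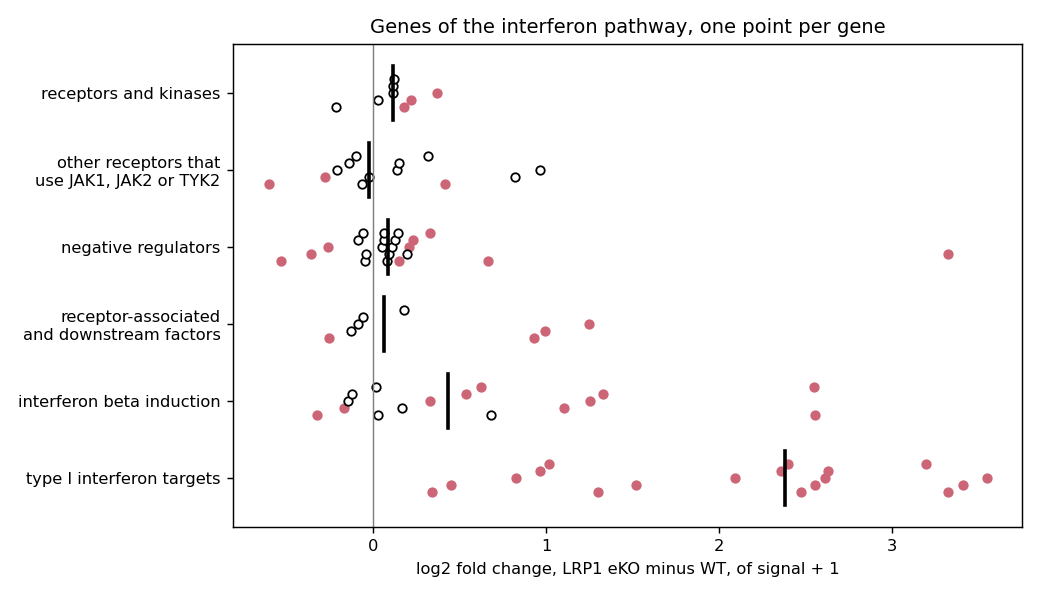
Log2 difference of signal + 1 (x axis, LRP1 eKO minus WT) of each tested gene in 6 lists of the interferon pathway, with called genes in red, other genes open, and a black line at the median. The 8 receptor and kinase genes lie between -0.21 and 0.37, while the type I interferon targets lie between 0.34 and 3.55. Of the latter, 4 passed the filter through the LRP1 eKO libraries alone.

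Of 30 genes for other cytokine receptors that use JAK1, JAK2 or TYK2, 13 were tested, 1 was called higher and 2 were called lower, with a median log2 difference of -0.02. Over all genes tested, 19.0% were called higher and 22.2% lower, and a difference between this list and the kinases was not tested. Ghr, the growth hormone receptor, which uses JAK2, rose from 29.1 ± 1.29 to 39.3 ± 1.29 (adjusted p = 0.00013 by limma). Il11ra1, the interleukin 11 receptor, fell from 54.7 ± 6.57 to 35.6 ± 1.78, a log2 difference of -0.60 (adjusted p = 0.00032 by limma). Il3ra, an interleukin 3 receptor chain, fell from 26.9 ± 2.45 to 21.9 ± 0.574 (adjusted p = 0.0066 by limma). Il6st, the gp130 chain that signals through JAK1, went from 111 ± 19.5 to 121 ± 8.16 (adjusted p = 0.37 by limma).

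Over the 8 libraries, the tested genes whose log2 signal was most like that of Jak1 were Hmga2, Edem1 and Wdr7, with Pearson correlations of 0.993, 0.993 and 0.992. For Jak2 they were Nus1, Rab8b and Srgap3, with correlations of 0.997, 0.994 and 0.988. The 8 libraries fall into 2 genotypes, and 942 genes reached a correlation of at least 0.9 with Jak1 and 596 with Jak2, so that the pattern was shared by many genes.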

How the data were processed

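The authors deposited 1 table, with 22520 protein-coding genes by 8 liver cell libraries (TruSeq), whose values are a quantile-normalized signal of a unit not stated. The submitters' processing notes name TopHat2, Cufflinks and mm10, while the paper's methods describe STAR, featureCounts and edgeR on counts that were not used here. Quantile normalization removes a global shift between genotypes, and depth is unknown, so that precision was judged from the 4 libraries of a group.

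Libraries were grouped by the sample titles. log2(signal + 1) was tested with limma 3.58.1 (R 4.3.3) with a mean-variance trend, genotype as the only term and two-sided tests. Scaling by length is not stated. Levels were compared between genes only roughly, in the check of cell type markers and where a gene is called low, well expressed or highest. Single genes and ratios were also tested by exact permutation. The calculation was tested on simulated data.

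The members, the gene lists and the tests were chosen with earlier results of these data known. The lists are described by counts and medians alone. Named genes are all members, Lrp1, for each list up to 3 genes with the smallest adjusted p and up to 2 more with the highest mean, and the 3 genes most correlated with each of the 2 members of smallest adjusted p. Genes outside this rule (Isg15, Itsn1, Gart, Ifnlr1, Il10ra, Jak3, Raver2, Cdh5, Egfl7, Acta2, Dcn, Lrat, Reln, Lyz2, Cd68, Csf1r, Clec4f, Oit3, Alb, Fgb, Apoa1, Cyp3a11, Cyp2e1, Cd4, Cox6a2, Zbp1, Iigp1 and others so marked in the text) were chosen after their values were seen. Of 215 listed genes, 207 were matched by symbol and 6 by gene ID, and Irf8 and Acta1 were not analysed here. The values of 1 counted gene are not reported here. Positions came from GENCODE M21 on GRCm38, the build also called mm10, in which 21740 gene IDs were found, and promoter windows from RefSeq (GRCm38.p6).

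Tests were repeated with array weights, without the trend, without the filter or with genes of mean signal 5 or more, with a pseudocount of 0.1 or 5, after centring each library on its trimmed mean (30% off either side), with replicate number as block, with a 2-fold threshold added, and without each library in turn. Ratios and figures were made in Python 3.11.15 (matplotlib 3.10.9).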

Additional observations from a re-analysis of the deposited data

Results flagged for a closer look

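Dixon's test was applied to 33 groups of 4 libraries (the members without Ifnb1 in WT, Lrp1 and the ratios), and in 4 of them 1 library stood apart. Chance flags about 1.65 of 33 groups, and the groups are not independent because the ratios reuse the values of the members. Values in parentheses are that library's gap to its neighbour divided by the whole spread. LRP1 eKO replicate 2 was lowest of its group for Ifngr1 (0.936) and for the ratio of Jak2 to Tyk2 (0.942). WT replicate 1 was highest of its group for Tyk2 (0.912), at a signal of 4.65 where the others lay between 4.37 and 4.39. WT replicate 4 was lowest of its group for the ratio of Ifnar1 to Ifnar2 (0.947). Over the 8 tested members, WT replicate 4 was the lowest WT library for 6, and LRP1 eKO replicate 2 was the lowest LRP1 eKO library for 5.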

How the results depend on the processing

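The decrease of Lrp1, and the increases of Jak1 and Jak2, kept their direction and an adjusted p below 0.05 under all 16 alternatives. The log2 fold change was between -3.80 and -3.42 for Lrp1 with 1 library left out. Ifngr2 kept its direction but lost its call under 8 of 16 alternatives, 7 of which leave out a library. The number of members called higher was 3 in the reported fit, between 2 and 4 with 1 library left out, 5 with array weights (Ifngr1 and Il10rb in addition) and 0 with a 2-fold threshold. The number called lower was 0, or 1 (Ifnar2) without LRP1 eKO replicate 1 or 3. Ifnar1 changed sign with array weights (-0.0024) and without WT replicate 4 (-0.0119), at adjusted p of 0.97 and 0.87, and with 1 library left out it ranged from -0.0119 to 0.0569. The 6 ratio differences kept their sign. With 1 library left out, they ranged from 0.17 to 0.29 for Ifnar1 to Ifnar2, from 0.14 to 0.17 for Jak1 to Jak2 and from 0.22 to 0.30 for Jak1 to Tyk2. The smallest p of 3 libraries against 4 is 0.029 and that of 4 paired differences is 0.125, so that the ratios could pass no threshold in the latter design. In the reported design the separated pairs were already at the smallest possible p. Given the p of the other pairs, they could not pass the adjusted threshold there either. Replicate numbers are shared by the groups in the labels, but deviations of same-numbered libraries correlated at -0.09, -0.13, 0.18 and 0.04, which does not show pairing. With the replicate block, 3 members were called higher and 0 lower, and the counts over all genes were 1975 and 2210 in place of 2164 and 2526. Depth could not be used to bound the low values of Ifnb1 and Socs1.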
